A study of Mus musculus with 3 samples.

Results

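The 10 genes described here are those that mark reactive astrocytes or build and support the astrocyte: Gfap, Vim, Nes, Serpina3n, Aqp4, Gja1, Slc1a2, Slc1a3, S100b and Cp. They were chosen by name, as 10 of the 50262 genes in the table, and all 10 had counts. Their levels were compared between cells with astrocyte markers and tumor cells, both from CD45- libraries. A cell was called an astrocyte-marker cell when Aqp4, Gja1, Aldoc and Slc1a2 together had 5 or more unique molecular identifiers (UMIs, each standing for 1 captured mRNA) and the human EGFR transgene, hsEGFR, had 0. A tumor cell had 2 or more hsEGFR UMIs. Aqp4, Gja1 and Slc1a2 were used to choose the cells, so their levels in these classes are a description, with no test.

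The gliomas arose in adult mice that carried a conditional human wild-type EGFR transgene, constitutive loss of Cdkn2a (-/-) and a conditional luciferase reporter, after Cre had been delivered by lentivirus into the striatum. All groups shared this genotype and treatment, and they differed in tumor stage, early, medium or late, and in the CD45 sort. CD45 is a surface protein of leukocytes, so the CD45- sort holds tumor and stromal cells. Each stage was 1 tumor sample, with 4 technical libraries per sort spread over 3 sequencing runs. The study's methods state that its Early samples were pooled from more than 1 animal, while the protocol of these data gives the pooled samples by number without a stage. Normal brain was not analysed here, so no level below is a level of unperturbed tissue. Per the extraction protocol, the cells came from minced brain without the cerebellum.

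Astrocytes answer injury, inflammation and nearby tumor growth with a graded program called reactive astrogliosis. Its best known mark is a rise of the intermediate filament proteins GFAP, vimentin and nestin, joined by secreted acute-phase proteins such as the protease inhibitor encoded by Serpina3n and ceruloplasmin, encoded by Cp. Other genes of the group serve the daily work of astrocytes: water flow (Aqp4), gap junctions (Gja1) and glutamate uptake (Slc1a2, Slc1a3). Glioma cells share much of this filament program with astrocytes and their progenitors, which is why GFAP, vimentin and nestin also serve as glioma markers.

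The sequences around the starts of Gfap and Serpina3n are shown because these were the reactive markers whose UMIs lay mostly in tumor cells and whose levels there were several-fold higher in the late than in the medium sample. They are RefSeq windows on GRCm38, from 250 bases before to 50 bases after the annotated start, and 9 of the 10 members had such a window. The Gfap window is chr11:102897151-102897450 on the minus strand, inside the interval that GENCODE gives the gene, and the Serpina3n window is chr12:104406458-104406757 on the plus strand. Capitals mark a match to TTCNNNGAA, the letters of a STAT-type site, read on both strands.
Gfap: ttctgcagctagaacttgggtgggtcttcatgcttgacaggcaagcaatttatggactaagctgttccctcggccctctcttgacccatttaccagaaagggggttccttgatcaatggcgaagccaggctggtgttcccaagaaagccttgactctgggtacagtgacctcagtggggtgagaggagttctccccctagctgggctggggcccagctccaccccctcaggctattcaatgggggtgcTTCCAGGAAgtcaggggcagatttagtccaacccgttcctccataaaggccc
Serpina3n: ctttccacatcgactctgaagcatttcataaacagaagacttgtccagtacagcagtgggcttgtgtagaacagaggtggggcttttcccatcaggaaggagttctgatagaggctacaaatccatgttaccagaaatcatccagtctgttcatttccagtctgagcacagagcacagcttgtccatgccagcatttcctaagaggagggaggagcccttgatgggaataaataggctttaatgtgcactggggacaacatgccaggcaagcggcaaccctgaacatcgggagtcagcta
The Gfap match began at base 249 of its window and so spanned the annotated start. TTCNNNGAA was in the windows of 2 members, Gfap and Slc1a3, and in 8.30% of all 32851 windows. TGANTCA, the letters of an AP-1-type site, was in the windows of Cp and Gja1 and in 7.81% of all windows. Both motifs are their own reverse complement, and no member window held both.

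After filtering, 6596 CD45- and 11185 CD45+ cells remained. CD45- libraries held 334 to 821 cells and 1170793 to 3764859 UMIs. Levels are given as counts-per-million (CPM), the UMIs of a gene scaled to the UMIs of all genes in the same cells. The early sample held almost no cells with the transgene: hsEGFR in the CD45- sort was at 7.28 CPM, against 706 (medium) and 1220 CPM (late). Some CD45- libraries shared cell barcodes within a run: 73 were common to a pair of late run-1 libraries, where 2.39 were expected from their sizes, and 51 to a pair of early run-3 libraries, where 2.63 were expected. Leaving out the shallower cell of each repeated barcode changed no call among the members in astrocyte-marker against tumor cells.

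Astrocyte-marker cells numbered 499, of which 260 were early, 141 medium and 98 late, and tumor cells numbered 1159 (4, 297 and 858). The astrocyte-marker label was only partly borne out. Of the 499 cells, 392 had a UMI of 8 astrocyte markers of which none is a member and 220 (44.1%) had 5 or more. Aldoc is among those 8 and was also used to choose the cells, and 138 cells had 5 or more UMIs of Aldoc alone. Of the 499 cells, 339 (67.9%) also had 5 or more UMIs of the markers of another cell type. OPC (oligodendrocyte precursor) markers were the most frequent of these, in 98 cells, followed by oligodendrocyte markers in 76, fibroblast markers in 69, ependymal markers in 52 and neuron markers in 42. A cell with markers of several other types was counted under each. The class is therefore called astrocyte-marker cells, and values are also given for the 160 cells with no other list. At the threshold, 85 cells had exactly 5 marker UMIs and 107 hsEGFR-negative cells had 4. At the tumor threshold, 97 cells had 2 hsEGFR UMIs and 141 had 1, and the median of tumor cells was 10. Of the tumor cells, 313 (27.0%) had 5 or more UMIs of the 4 astrocyte genes.

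GFAP is the filament protein that defines reactive astrocytes, yet few of its UMIs lay in astrocyte-marker cells. Of 851 Gfap UMIs in CD45- cells, 639 (75.1%) were in tumor cells, 123 (14.5%) in cells with no class and 31 in 14 astrocyte-marker cells. Such shares, here and below, are not corrected for class size: late tumor cells held 6142607 UMIs of all genes and late astrocyte-marker cells 500826. In astrocyte-marker cells Gfap was at 10.7 CPM (early), 8.43 CPM (medium) and 32.0 CPM (late). In tumor cells it was at 0, 20.5 and 96.9 CPM, given here and below in the order of stages. The tumor cells were thus higher in the medium and late samples, while the early tumor value rests on 4 cells. The late order turned when cells with a second marker list were left out: 30 late astrocyte-marker cells then had 177 CPM (exact Poisson 95% interval 88.2 to 316) on 11 UMIs, against 100.3 CPM (90.5 to 111) in late tumor cells. Over the 3 tumor samples, Gfap was at 17.04 ± 12.96 CPM in astrocyte-marker cells and 39.1 ± 51.05 in tumor cells (SD, n = 3). The log2 fold change of -1.44 (SE 0.60) did not pass the edgeR test (adjusted p = 0.0856), and without the early sample it was -1.67 and did (adjusted p = 0.0448). A Gfap UMI was found in 2.81% of astrocyte-marker cells (exact binomial 95% interval 1.54 to 4.66) and in 22.0% of tumor cells, with median depths of 3097 and 6270 UMIs. After thinning each cell to 1000 UMIs, which left out 16 and 13 shallower cells, the shares were 1.45% and 6.81%. Microglia of the CD45+ sort, which should lack Gfap, gave 0.248% at a median of 2007 UMIs and 0.144% after thinning. Those microglia came from other libraries. In the same CD45- libraries, oligodendrocytes gave 1.03% at a median of 2473 UMIs and 0.487% after thinning, and in the medium sample their Gfap level was 7.55 CPM on 16 UMIs, against 8.43 CPM on 5 UMIs in astrocyte-marker cells. Gfap in medium astrocyte-marker cells was thus not distinguishable from that of oligodendrocytes at this depth. Intervals cover counting error only.

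Vim encodes vimentin, the filament of mesenchymal cells, endothelium, progenitors and reactive astrocytes. Of its 20901 UMIs in CD45- cells, 78.6% were in tumor cells. Astrocyte-marker cells had 427, 400 and 721 CPM and tumor cells 2863, 1317 and 2202 CPM. The ranges did not overlap. Vim was lower in astrocyte-marker cells, with a log2 fold change of -1.92 (SE 0.40, adjusted p = 3.29e-05). Without the medium or the late sample the difference kept its direction but not its call (adjusted p = 0.0807 and 0.407), and without the early sample, whose tumor arm was 4 cells, it kept both (-1.84, adjusted p = 0.00773).

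Nes encodes nestin, the filament of neural progenitors, of growing vessels and of many gliomas. It was scarce, with 798 UMIs in CD45- cells, 76.6% in tumor cells. Levels were 11.8, 11.8 and 23.96 CPM in astrocyte-marker cells against 44.1, 34.0 and 87.4 CPM in tumor cells, where the early value is a single UMI. Astrocyte-marker cells were lower in all 3 samples. In the fit of all 3 samples Nes passed the filter on low counts only through tumor cells, so its call there is given as a description. The log2 fold change was -1.79 (SE 0.59, adjusted p = 0.0185), and without the early sample it was -1.90 (adjusted p = 0.0303). The call was lost with DESeq2 (-1.499, adjusted p = 0.0731) and without the medium or the late sample (adjusted p = 0.509 and 0.944).

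Serpina3n encodes a secreted serine protease inhibitor that reactive astrocytes make in many injury models. Astrocyte-marker cells had 49.4, 60.7 and 30.0 CPM, and tumor cells 44.1, 152 and 729 CPM. Late tumor cells stood far above the other 5 groups, and the early tumor value is again 1 UMI. Astrocyte-marker cells were lower by edgeR, at a log2 fold change of -2.38 (SE 0.52, adjusted p = 7.75e-05), in 2 of 3 samples. This call was lost with DESeq2 (-1.81, adjusted p = 0.111), without the early (-3.03, adjusted p = 0.0573), the medium (-2.91, adjusted p = 0.0516) or the late sample (-0.72, adjusted p = 0.999), and when cells with a second marker list were left out (-0.74, adjusted p = 0.380). The table also counts 10 paralogs of Serpina3n, of which Serpina3f had 28 and Serpina3g 11 UMIs in CD45- cells, against 6454 for Serpina3n. How reads that fit several of these paralogs were divided is uncertain.

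Cp encodes ceruloplasmin, a copper-carrying ferroxidase that astrocytes hold at the cell surface. It was higher in astrocyte-marker cells, at 57.9, 101 and 89.9 CPM against 0, 8.85 and 6.35 CPM in tumor cells. The groups did not overlap. Cp passed the filter on low counts only through astrocyte-marker cells, so its call is given as a description. The log2 fold change was 3.57 (SE 0.58, adjusted p = 2.20e-08). Without the early sample it was 3.49 (adjusted p = 0.00879), and without the late sample the adjusted p was 0.152. This level was not that of the cells with astrocyte markers alone: in the 160 cells with no other list Cp was at 22.2 CPM (exact Poisson 95% interval 9.60 to 43.8), in the 69 cells that also carried fibroblast markers at 261 CPM, in the 17 with mural markers at 553 CPM and in the 76 with oligodendrocyte markers at 182 CPM. These groups of mixed cells overlap, so a level need not belong to the type named. With all mixed cells left out, Cp fell under the filter on low counts in this contrast, and in the fit of all classes its difference from tumor cells was 1.86 (adjusted p = 0.197).

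Slc1a3 encodes GLAST, the glutamate transporter of astrocytes and radial glia, and S100b encodes a calcium-binding protein of astrocytes and of oligodendrocyte-lineage cells. Slc1a3 was at 961, 1610 and 555 CPM in astrocyte-marker cells and 88.1, 166 and 114 CPM in tumor cells, higher in all 3 samples (log2 fold change 2.87, SE 0.45, adjusted p = 4.37e-09). The call held under all 17 alternatives, with log2 fold changes of 2.57 to 5.38. S100b was at 373, 410 and 192 CPM in astrocyte-marker cells and 396, 858 and 445 CPM in tumor cells. Astrocyte-marker values were below those of tumor cells within each sample, but the difference of -0.82 (SE 0.42) did not pass the test (adjusted p = 0.187). Without the early sample it was -1.31 and passed (adjusted p = 0.0154), without the medium sample it was -0.55 (adjusted p = 0.921) and without the late sample -0.30 (adjusted p = 0.999). Without TMM factors it passed (-0.85, adjusted p = 0.0457).

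Of the 7 members open to a test, then, 2 were higher in astrocyte-marker cells (Slc1a3, Cp), 3 were lower (Vim, Nes, Serpina3n) and 2 did not pass (Gfap, S100b). Among these, Cp and Nes passed the filter on low counts only through the class where each was higher, so their calls are a description. Across all 10878 genes tested, 11.9% were higher and 4.93% lower. The members chosen from had log2 fold changes of 5.03 (Aqp4, the water channel of astrocyte endfeet), 2.20 (Gja1, the gap junction protein connexin 43) and 4.70 (Slc1a2, the glutamate transporter GLT-1). Microglial markers moved with the contrast too: 5 leukocyte and microglial genes summed to 164 to 219 CPM in astrocyte-marker cells and 38.2 to 101 CPM in tumor cells, with 4 of the 5 at 0 in the early tumor cells, and their part in the result was not tested. The 3 samples of each test differ in stage, so their spread includes that of stage. In such sums, fewer cells that make a transcript and less of it per cell cannot be told apart.

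**Figure D1:**
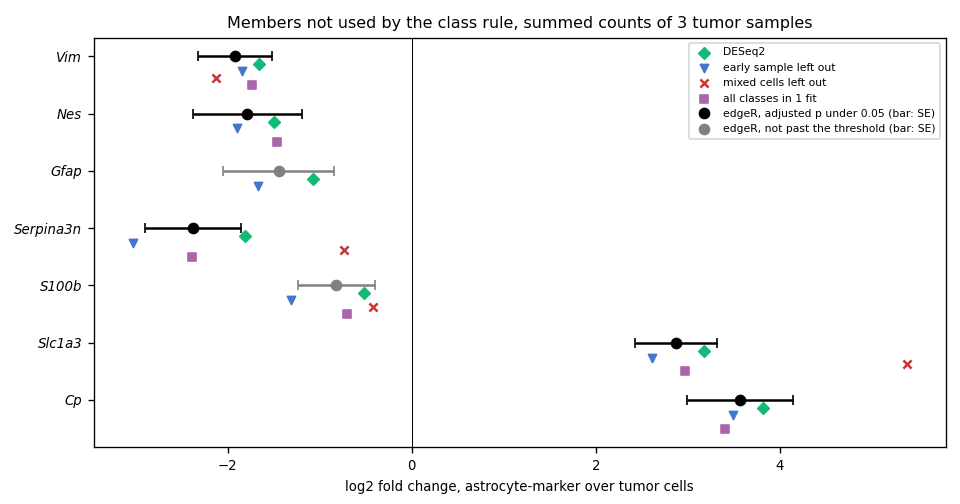
Log2 fold change of the members not used to choose the cells, astrocyte-marker over tumor cells, with its standard error. Cp (3.57) and Slc1a3 (2.87) lie to one side and Vim (-1.92), Nes (-1.79) and Serpina3n (-2.38) to the other.

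A second way of choosing the cells left the members out of the choice. It was not independent of the first, since Aldoc served in both and 220 of its 276 cells were also astrocyte-marker cells by the first. When astrocyte-marker cells were taken by 5 or more UMIs of 8 markers that are no members, Aqp4, Gja1 and Slc1a2 were no longer used to choose them. Gja1 and Slc1a2 were higher than in tumor cells, with log2 fold changes of 2.62 and 5.14 (adjusted p = 1.20e-09 and 6.55e-30). Slc1a3 (3.67) was again higher and Vim (-2.90) and Serpina3n (-2.65) again lower, while S100b was at -1.02 (adjusted p = 0.0532) and Gfap fell under the filter on low counts. Aqp4 (5.53) and Cp (3.46) are not counted, because they passed the filter only through astrocyte-marker cells. In tumor cells Aqp4 was at 0, 18.2 and 2.605 CPM and Cp at 0, 8.85 and 6.35 CPM. Nes is not counted here, because these astrocyte-marker cells held 1 Nes UMI in the early sample and 0 in the others, and it passed the filter only through tumor cells. Of 8286 genes tested this way, 11.1% were higher and 5.37% lower.

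The astrocyte-marker cells were grouped by the other marker lists they carried, as a description. A cell with several other lists is in each of those groups, so the groups overlap and a level need not belong to the list named. In the 160 cells with no other list, Slc1a3 reached 4377 CPM (4163 to 4598) and Serpina3n 89.0 CPM (60.9 to 126), the intervals being exact Poisson 95%. Of the 12 Gfap UMIs of these cells 11 were late, so that Gfap was at 0, 7.57 and 177 CPM by stage. Slc1a3 was thus highest where astrocyte markers stood alone. Those 160 cells were shallower, at a median of 1694 UMIs against 3097 in the whole class, and the part of depth in their levels was not tested. Cells that also carried ependymal markers had Gfap at 70.4, Vim at 1817 and S100b at 876 CPM, with Slc1a3 at 299 CPM. Cells with endothelial markers had Vim at 1802 and Nes at 148 CPM. No Gfap UMI was found in the cells with fibroblast or oligodendrocyte markers, which allows a level of up to 9.93 and 8.41 CPM (exact Poisson upper bounds). Cells with ependymal markers held 413 of the 996 Vim UMIs of the class and 16 of its 31 Gfap UMIs, and cells with endothelial markers held 10 of its 30 Nes UMIs.

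**Figure D2:**
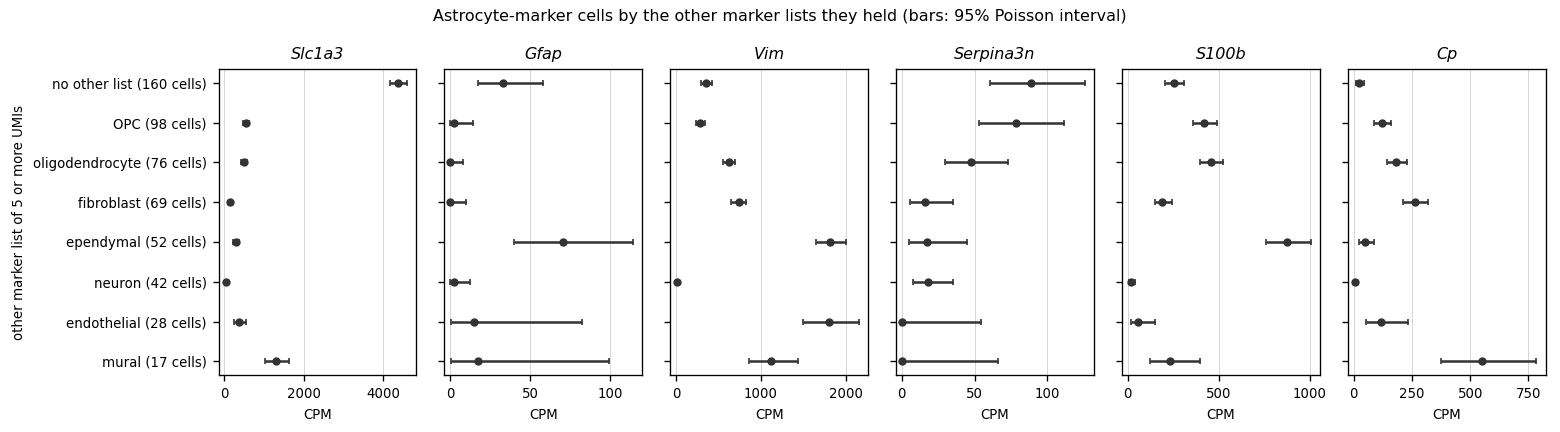
Level of members in CPM in astrocyte-marker cells by the other marker lists they carried, with exact Poisson 95% intervals. A cell with several other lists is in several groups. Slc1a3 is highest (4377 CPM) in the 160 cells with no other list, and Vim is highest in cells with ependymal or endothelial markers (1817 and 1802 CPM).

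The same members were then placed among all marker-defined classes of the CD45- sort. Means over the 3 samples put tumor cells first for Gfap (39.1 CPM), with ependymal cells (30.3) and astrocyte-marker cells (17.04) next, and no neighbours in that order were separated by their ranges. Vim was highest in tumor (2128), mural (1754) and ependymal cells (1193 CPM), with endothelial (938), fibroblast (882) and astrocyte-marker cells (516) next, and the range of astrocyte-marker cells did not overlap that of OPC (126 CPM). The first place of tumor cells for Vim rests on the 4 early cells (2863 CPM), since mural cells were higher in the medium (1852 against 1317 CPM) and late samples (3273 against 2202 CPM). Nes was highest in mural cells, the pericytes and smooth muscle of vessels, at 151 ± 59.4 CPM, above tumor cells (55.2) without overlap. Endothelial cells (71.1) came next, and in the late sample were level with mural cells, at 108.7 against 109.1 CPM on 12 and 6 UMIs. Serpina3n was highest in tumor cells (308), then oligodendrocytes (148) and OPC (128), whose ranges both lay above that of astrocyte-marker cells (46.7 CPM). The tumor mean came mostly from the late sample (729 CPM), and in the early sample oligodendrocytes (112 CPM) were above the 4 tumor cells (44.1 CPM). Cp was led by mural (393) and fibroblast cells (349), which did not overlap astrocyte-marker cells (83.0 CPM). Slc1a3 was led by astrocyte-marker cells (1042 CPM), clear of OPC (364). S100b was shared by tumor cells (566), oligodendrocytes (530), OPC (408), ependymal cells (381) and astrocyte-marker cells (325 CPM), each overlapping the next in range.

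**Figure D3:**
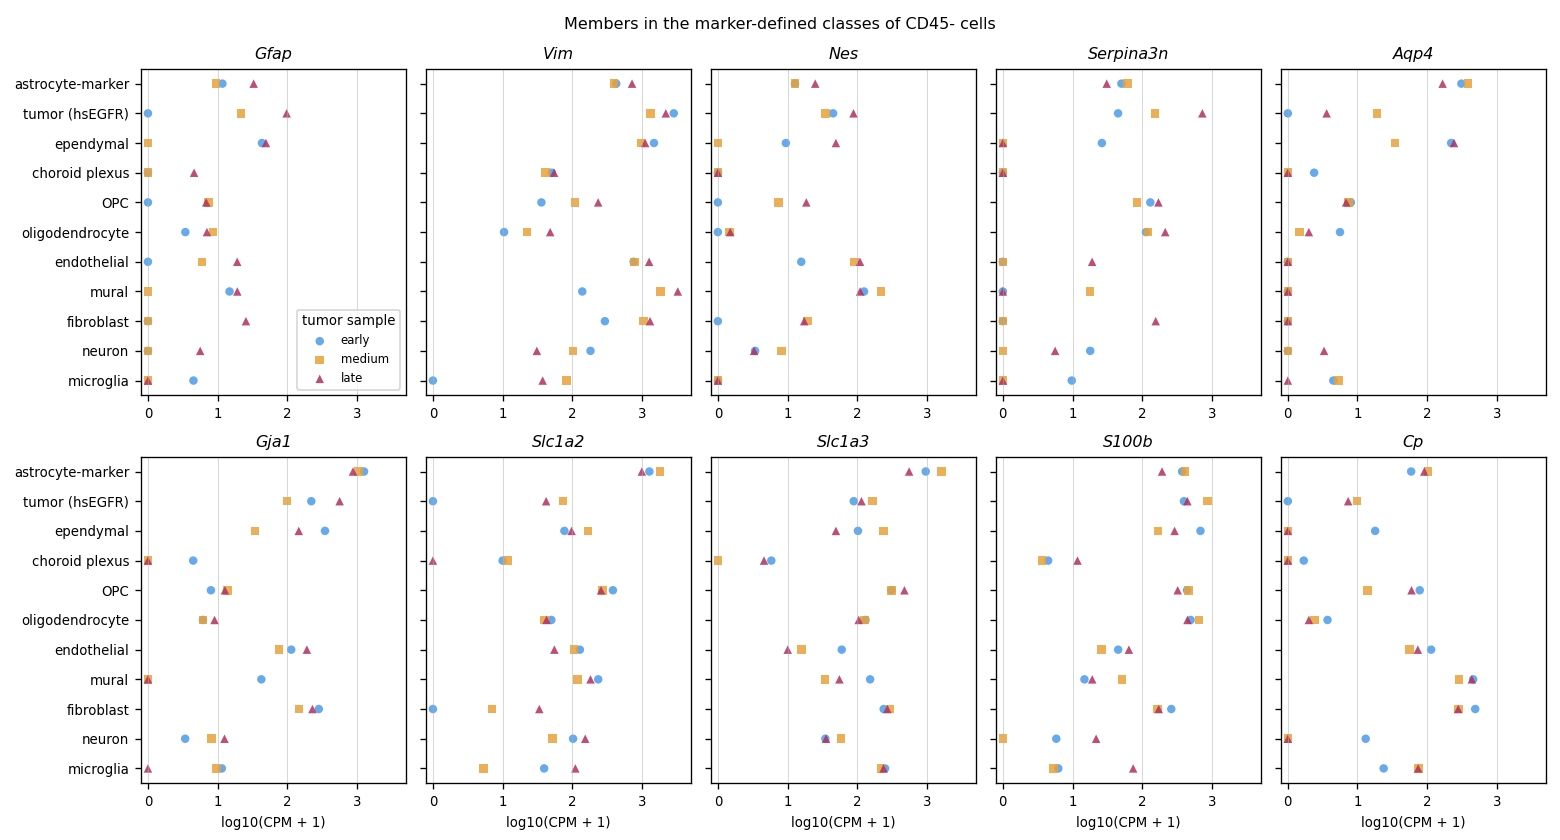
Level of each member in CPM by marker-defined class, with 1 point per tumor sample and a log axis. By the mean over samples tumor cells lead for Gfap and Serpina3n, mostly through the late sample, for Vim only through the 4 early cells and for S100b only through the medium sample. Mural cells lead for Nes and Cp, and astrocyte-marker cells for Slc1a3.

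The edgeR fit across classes held the 9 classes with at least 20 cells in each tumor sample, and tumor cells, of which the early sample had 4. In this fit of 10 classes, the 6 members that were tested and not used by the rule gave 25 higher and 7 lower calls in 54 contrasts of astrocyte-marker cells with another class. Of these, 3 higher and 2 lower calls were of Nes. It passed the filter on low counts of this fit only through other classes, so its calls are a description. As background, the share of all 10336 genes tested that was higher and lower was 8.05% and 2.61% against OPC, 10.9% and 4.98% against mural, 12.5% and 6.51% against fibroblast, 12.9% and 5.04% against neuron and 15.8% and 5.04% against tumor cells. It was 20.4% and 10.8% against endothelial cells, 25% and 12.7% against oligodendrocytes, 26.6% and 12.9% against microglia and 28.3% and 14.1% against choroid plexus cells. Slc1a3 was higher in all 9 contrasts, although the call against OPC was lost without the medium sample (1.02, adjusted p = 0.118). As a description, Nes was lower than in mural (-3.24, adjusted p = 2.80e-04) and endothelial cells (-2.06, adjusted p = 0.00887). Cp was lower than in mural (-2.16, adjusted p = 4.96e-04) and fibroblast cells (-2.10, adjusted p = 3.86e-04). Serpina3n was lower than in oligodendrocytes (-1.87, adjusted p = 0.0228) and tumor cells (-2.38, adjusted p = 0.0144). S100b was lower than in oligodendrocytes (-1.12, adjusted p = 0.0126). The Nes call against endothelial cells was lost without the medium (adjusted p = 0.149) or the late sample (0.137) and with mixed cells left out (0.189). The Serpina3n call against tumor cells was lost with DESeq2 (0.194), without the late sample (0.324) and with mixed cells left out (0.249). Both calls against oligodendrocytes were lost without TMM factors (adjusted p = 0.0596 for Serpina3n and 0.132 for S100b) and with DESeq2 (0.198 and 0.196), that of Serpina3n also with mixed cells left out (0.269) or with a minimum of 10 astrocyte-marker UMIs (0.0530), and that of S100b without the late sample (0.0693). Without TMM factors the median of all genes in that contrast moved from 0.12 to 0.58 on the log2 scale, and 81.9% instead of 66.3% of calls were higher. The share of calls that were higher also moved from 66.7% to 83.3% against choroid plexus, from 67.4% to 78.1% against microglia and from 75.5% to 65.0% against OPC. In this fit Vim and Nes were not called against tumor cells (adjusted p = 0.134 and 0.0796), and Gfap was too low to be tested. Vim was called with no filter on low counts (adjusted p = 6.72e-05), without the early sample (0.00442) and by the 8 other markers (0.0312), and Nes without the block (0.0264) and with all deposited cells (0.00924).

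The members were also followed across stages, with no test, since each stage was 1 sample. In tumor cells 5 of the 10 members were higher in the late than in the medium sample beyond the 95% counting interval and 4 were lower, where 19.2% of 17155 genes were higher and 13.9% lower. Gfap went from 20.5 to 96.9 CPM, a log2 ratio of 2.23 (1.80 to 2.72), and Serpina3n from 152 to 729 CPM, a log2 ratio of 2.26 (2.10 to 2.42). The 4 technical libraries of each stage did not overlap, with Gfap at 8.22 to 36.8 against 77.7 to 116 CPM and Serpina3n at 79.5 to 241 against 570 to 788 CPM. Within runs 1, 2 and 3 the Gfap log2 ratio was 3.51, 1.54 and 2.35 and that of Serpina3n 1.68, 2.63 and 1.80. Gja1 (2.51), Nes (1.35) and Vim (0.74) were also higher in the late sample, each with libraries that did not overlap. S100b was lower in the late sample (-0.95), with libraries at 713 to 995 against 439 to 455 CPM, as were Slc1a3 (-0.54) and Slc1a2 (-0.81), though not within run 1. Aqp4 (-2.78) rested on 1 medium cell that held 36 of the 39 UMIs. The 5 microglial and leukocyte markers summed to 38.2 CPM in medium and 101 CPM in late tumor cells, and their part in these differences was not tested. Stage, tumor and animal cannot be told apart here.

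**Figure D4:**
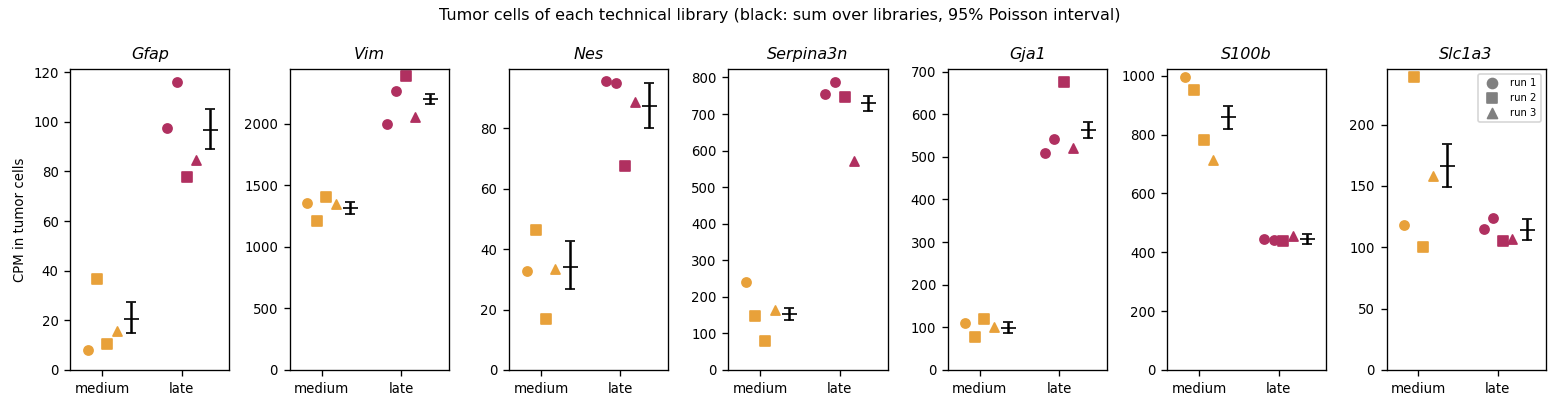
Level of members in tumor cells in CPM, with 1 point per technical library of the medium and late samples. Late libraries lie above all medium libraries for Gfap (77.7 to 116 against 8.22 to 36.8) and Serpina3n (570 to 788 against 79.5 to 241), and below them for S100b.

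The share of tumor cells with a UMI followed the order of these levels. Gfap UMIs were found in 6.73% of medium and 27.4% of late tumor cells, and in 2.39% and 8.36% after thinning to 1000 UMIs. Serpina3n UMIs were found in 23.2% and 57.8%, and in 10.6% and 32.98% after thinning, against 0.153% in CD45+ microglia. Late tumor cells with 5 or more UMIs of the 4 astrocyte genes had Serpina3n at 1095 and Vim at 3391 CPM, against 403 and 1144 CPM in the other late tumor cells. Gfap was at 121 against 75.4 CPM, while S100b was lower, at 322 against 553 CPM. Among the genes that made the split, these late cells differed in Gja1 (1070 against 111 CPM), but little in Slc1a2 (42.2 against 40.3 CPM) and Aqp4 (3.11 against 2.15 CPM). In the medium sample the same split gave Serpina3n 144 and 155 CPM, with overlapping intervals, and Vim 1552 and 1248 CPM. The split moves with depth and with Gja1, which was itself higher in the late sample, and put 45 of 297 medium and 268 of 858 late tumor cells in the upper group, so no stage difference is read from it.

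In astrocyte-marker cells, of the 7 members not used to choose them, 3 were above the counting interval in the late over the early sample and 2 below, where 19.7% of genes were above and 9.66% below. Gfap was at 1.55 (0.35 to 2.88) on the log2 scale, but on 10 and 16 UMIs, of which 8 early UMIs were in 1 cell and 12 late UMIs in 1 run-1 library. Leaving out that library gave 0.57, and leaving out the early run-3 library of the rich cell gave 3.23. Vim was at 0.76, and 70.6% of the late Vim UMIs were in 5 cells. Cp was at 0.64, while Slc1a3 (-0.79) and S100b (-0.96) were lower. The genes that chose the cells were at -0.89 (Aqp4), -0.53 (Gja1) and -0.36 (Slc1a2), given as a description. Astrocyte-marker cells that also held 5 or more UMIs of the neuron markers numbered 16 of 260 early and 18 of 98 late cells, and over the stages these cells had low Slc1a3 (56.1 CPM), Gja1 (35.9 CPM), S100b (20.2 CPM) and Aqp4 (6.74 CPM). Those with ependymal markers numbered 36 early and 6 late, and had S100b at 876 and Aqp4 at 818.5 CPM. Early and late counts were 46 and 12 with oligodendrocyte, 41 and 16 with OPC and 40 and 15 with fibroblast markers. The part of these cells in the ratios was not tested. With cells of a second marker list left out, Gja1 was at 3123 CPM early and 3086 CPM late and Slc1a2 at 3874 and 3793 CPM, within their counting intervals. Slc1a3 (4019 and 3262 CPM), Aqp4 (896 and 579 CPM) and S100b (272 and 209 CPM) had lower values in the late sample, but the intervals of their levels overlapped. For S100b these were 199 to 364 CPM early and 111 to 357 CPM late. In the same cells, on few UMIs, Gfap was at 0 early and 177 CPM late, Vim at 242 and 530 CPM and Cp at 6.05 and 112 CPM, without overlap of the intervals. Serpina3n was at 60.5 and 177 CPM and Nes at 24.2 and 0 CPM, with intervals that overlapped. In these cells the intervals compared are those of the levels, not the interval of the ratio used above, which is a different measure. Several of the other ratios turned with the run or the choice of cells. Among other CD45- cells, Serpina3n in oligodendrocytes was at 112, 119 and 213 CPM by stage, and Vim in mural cells at 138, 1852 and 3273 CPM, from 46, 29 and 21 cells.

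Over all CD45- cells, late over early, Gfap (log2 ratio 4.32), Nes (4.02), Vim (3.44), Serpina3n (2.97), Gja1 (1.25) and S100b (0.33) were higher and Aqp4 (-1.91), Slc1a2 (-1.03), Slc1a3 (-0.68) and Cp (-0.60) lower, where 35.9% of genes were above the counting interval and 21.1% below. Tumor cells numbered 4 in the early and 858 in the late sample, and their part in these ratios was not tested.

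Between the sorts, most of these genes were higher in CD45- cells. The CD45+ sort also held hsEGFR, at 1.85, 271 and 84.7 CPM by stage, against 7.28, 706 and 1220 CPM in the CD45- sort. The part of tumor transcripts in this comparison was not tested. Against CD45- cells, CD45+ cells were lower for 7 members and higher for 1, where 25.7% of 18433 genes were lower and 20.4% higher. The lower members were Aqp4 (-4.49), Serpina3n (-4.16), Gja1 (-3.77), Slc1a2 (-3.31), S100b (-3.23), Gfap (-2.18, adjusted p = 0.00161) and Nes (-1.21, adjusted p = 0.0228). Vim (-0.45, adjusted p = 0.493) and Slc1a3 (-0.28, adjusted p = 0.526) did not pass. Cp was the exception, at 141 ± 102 CPM in the CD45+ sort against 23.7 ± 5.67 CPM in the CD45- sort (SD, n = 3, log2 fold change 2.71, adjusted p = 0.00542). Without the block for tumor sample, Gfap (adjusted p = 0.161) and Nes (0.252) were no longer called. Nes was also not called without the late sample (-0.71, adjusted p = 0.193), nor Serpina3n without a filter on low counts (adjusted p = 0.111). Without TMM factors the median of all genes moved from -0.04 to -0.40 and 28.3% instead of 44.2% of calls were higher, and every member kept its direction and call.

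In cells of the CD45+ sort called microglia by their markers, Cp was at 64.0 CPM (early), 154 CPM (medium) and 288 CPM (late). The late over early log2 ratio was 2.17 (2.03 to 2.31), and 1.62, 2.35 and 2.08 within runs 1, 2 and 3, where 20.7% of genes were above the interval and 15.5% below. Library ranges did not overlap between stages (57.8 to 78.9, 141 to 161 and 171 to 296 CPM), although the smallest late library held 13 microglia. Slc1a3 went the other way, from 248 to 124 and 119 CPM, with a late over early log2 ratio of -1.06. Vim was at 57.1, 180 and 153 CPM. The classes of the CD45+ sort were microglia, T cells and other cells, with none for macrophages. Macrophages that carry microglial markers may therefore be counted as microglia. The paper reports more macrophages in late than in early tumors, and their part in these stage differences was not tested.

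**Figure D5:**
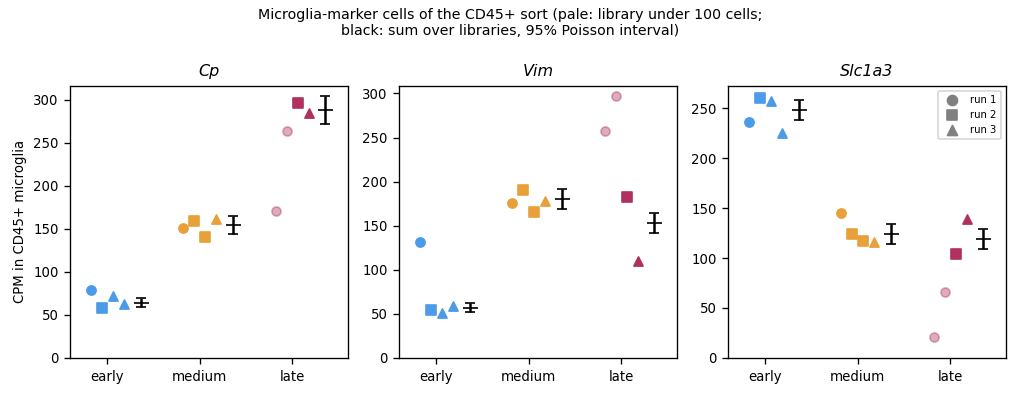
Level of Cp, Vim and Slc1a3 in CPM in cells of the CD45+ sort called microglia by their markers, by stage, with 1 point per technical library. Cp lies at 57.8 to 78.9 CPM in early and 171 to 296 CPM in late libraries, and Slc1a3 is lower in medium and late than in early libraries.

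Other genes of the reactive program were counted from lists, described beside the members and not as independent support. The counts below stand against 11.9% of all 10878 genes tested that were higher and 4.93% that were lower. In astrocyte-marker against tumor cells, 4 of 9 pan-reactive genes passed the filter on low counts, none higher and 2 lower: Cd44, the hyaluronan receptor (-3.31, adjusted p = 1.90e-08), and Cxcl10, a chemokine (-2.24). Of 11 A1-type genes 9 were tested, 2 higher (the complement inhibitor Serping1 at 5.95, and Srgn, a proteoglycan of leukocyte granules, at 3.64) and 2 lower (Fbln5 at -2.58, Ggta1). Of 12 A2-type genes 4 were tested and Emp1 was lower (-2.62). Of 13 other intermediate filament genes 6 were tested: the neuronal filaments Ina (3.81) and Nefl (3.44) were higher and the lamin Lmnb1 lower (-3.06). The sums include the 42 astrocyte-marker cells with neuron markers and the 69 with fibroblast markers. The part of these cells in Ina, Nefl and Serping1 was not tested. Of 20 genes of astrocyte homeostasis all were tested and 18 were higher, led by the connexin Gjb6 (7.20), the GABA transporter Slc6a11 (6.52) and Cldn10 (6.10). The cells were chosen by astrocyte markers, so this count is a description. Gjb6 and Cldn10 were at most at 1.14 and 2.28 CPM in tumor cells and passed the filter on low counts only through astrocyte-marker cells. The medians of the lists, in the order given, were -1.29, -0.18, -0.30, 0.12 and 3.18, against 0.05 for all genes tested.

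For 4 members the genes with the most similar levels were sought over 33 sums of sample and class, as Pearson's r of log2(CPM + 1) over 14490 genes. Serpina3n was most like Abtb2 (r = 0.88), Gm16277 (0.82) and Ppp1r14c (0.82). Vim was most like Tm4sf1, Anxa2 and Serpinh1 (each 0.82), and Cp most like Svil (0.85), Tnfsf12 (0.84) and Rras (0.82). For Gfap the best values were lower, 0.67 for Sac3d1 and Slc35e4 and 0.62 for Afg1l. The sums share libraries and differ in depth.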

How the data were processed

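Counts were analysed of 24 inDrop libraries from 3 tumor samples. The authors mapped reads with RapMap in bcbio-nextgen to the GRCm38 transcriptome with transgenes added, called cells against empty droplets and deposited raw UMI counts per gene and cell. The library annotation that the authors deposited, text of another kind (unit: other), gave run, sort and stage, and its large stage is called late. Whether ambient RNA and doublets had been removed before deposit is not stated, so both may be present.

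Of 20811 cells, those with at least 500 UMIs, at least 500 genes and at most 20% mitochondrial UMIs were kept (17894), and 113 Scrublet calls among 17786 cells tested (0.635%) were removed. A cell that met neither class rule took the marker list with the highest sum of at least 5 UMIs. Counts were summed per tumor sample and class, since cells are not replicates. Sums were tested with the edgeR (4.0.16) quasi-likelihood test with TMM factors, filterByExpr and tumor sample as a block, two-sided, Benjamini-Hochberg adjusted over all genes tested with a threshold of 0.05. The block pairs cells of the same tumor sample (correlation of deviations 0.0737 to 0.0749 over 10878 genes). Replicates 1, 2 and 3 are the early, medium and late samples. SDs are over these 3 samples, and SEs of log2 fold changes come from the fit. Stage ratios have a prior of 0.5 counts and intervals of 95% for counting error only. DESeq2 (1.42.0), other filters, other class rules, left-out samples and libraries, and run-wise values were tried as alternatives. The statistics were tested on simulated data.

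The members and lists were chosen with earlier results of these data known. Named beyond the members were the 3 most similar genes of 4 members, and from each list the 3 with the largest change past the threshold in astrocyte-marker against tumor cells. Ggta1 and the list genes named between the sorts were named after their values were seen. Sequences came from RefSeq windows on GRCm38. A further allele that all groups shared is not reported here.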

Additional observations from a re-analysis of the deposited data

Results flagged for a closer look

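Within each stage the 4 technical libraries of a member were compared, in 50 groups, and 3 held a library far from the other 3, by the gap to the nearest library as a share of the whole range. Chance gives about 1 in 20 such groups. Gfap in all late CD45- cells was at 86.9 CPM in a run-1 library, against 60.3 to 62.5 CPM in the other 3 (gap 0.919 of the range). This library is one of the late pair that shared 73 barcodes. Aqp4 in medium tumor cells was at 49.1 CPM in a run-2 library, against 0 to 5.48 CPM in the others (gap 0.888), on 36 UMIs that were all in 1 cell. Slc1a2 in all medium CD45- cells was at 326 CPM in a run-3 library, against 173 to 195 CPM in the others (gap 0.855).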

How the results depend on the processing

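In astrocyte-marker against tumor cells, 1298 genes were higher and 536 lower. Higher genes numbered 1962 with no filter on low counts, 722 with astrocyte markers of 10 or more UMIs, 428 with mixed cells left out, and 324 to 1130 when a tumor sample was left out (707 without the medium and 324 without the late sample). Lower genes numbered 221 by DESeq2, 353 and 331 with astrocyte markers of 3 and 10 or more UMIs, 229 with mixed cells left out and 40 to 742 when a sample was left out (91 without the medium and 40 without the late sample). Without the replicate block the counts were 1391 and 719. The 7 lower member calls against other classes, 2 of them of Nes and so a description, became 4 by DESeq2, 4 with mixed cells left out and 4 to 10 with a sample left out, 4 being without the late sample. Members above the interval in late over early astrocyte-marker cells, 3 in all, numbered 0 within run 1, 1 within run 2 and 1 without an early run-2 library, and the 5 below, of which 3 chose the cells, numbered 2 by the 8 other markers, 2 with mixed cells left out and 2 within run 2. The 4 members below in late over medium tumor cells became 1 within run 1 and 2 without a medium run-2 library.

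Among members past the interval, ratios that reversed in late over early astrocyte-marker cells were Gfap within run 3 (-0.21), Vim within run 1 (-0.029), Gja1 by the 8 other markers (0.17), within run 2 (0.22) and as the mean of the cells' own CPM (0.00686), Slc1a2 as that mean (0.067), and S100b within run 3 (0.17). Of those within it, Serpina3n (-0.69) was at 1.21 and Nes (1.02) at -1.39 within run 2, and at 1.54 and -1.76 with mixed cells left out. In late over medium tumor cells, Aqp4 reversed with mixed cells left out (0.78) and ranged from -3.24 to 0.12 with a library left out, 0.12 being without the library of its 1 rich cell, and Slc1a2 (0.53) and Slc1a3 (0.017) within run 1. Of the alternative values of the 7 members in astrocyte-marker against tumor cells, 96 kept their call, 13 lost and 3 gained the call with the same direction. Between the sorts 96 kept it and 4 lost it. The causes of these changes were not tested. Leaving out repeated barcodes was chosen after seeing the data. Depth limited Gfap and Nes in astrocyte-marker cells, with 31 and 30 UMIs, and the 4 early tumor cells (22703 UMIs) limited every contrast with the early tumor arm.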

Other observations

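Of all 18433 genes tested between the sorts, 20.4% had higher and 25.7% had lower levels in the CD45+ sort. Of 8 pan-reactive genes tested that are no members, 2 were higher and 4 lower, with a median of -1.41. The higher genes were Lcn2, a lipocalin of neutrophils and reactive astrocytes (log2 fold change 9.69, adjusted p = 1.42e-04), and Cxcl10 (3.74, adjusted p = 0.00318). The lower genes were Timp1, an inhibitor of metalloproteinases (-3.86), S1pr3 (-2.94), Hspb1 (-2.16) and Osmr, the oncostatin M receptor (-1.87). All 11 A1-type genes were tested, with 7 higher, 2 lower and a median of 1.30, led by Srgn (4.77), Fbln5 (-3.24) and Psmb8, an immunoproteasome subunit (3.21). Of 9 A2-type genes tested 2 were higher and 3 lower, and of 20 genes of astrocyte homeostasis 1 was higher and 17 lower (medians -0.07 and -3.29). Of 12 other intermediate filament genes tested, 8 were lower in CD45+ cells and none was higher, with a median of -2.32 against -0.04 for all genes tested. The largest changes among them were Krt8 (-5.11), Synm, a partner of desmin and vimentin (-4.18), and Krt18 (-4.05).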
